A study of Bos taurus with 48 samples.

Results

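ABCA1 is the ATP-binding cassette transporter of the plasma membrane that passes cholesterol and phospholipid to lipid-poor apolipoprotein A-I, the first step in the formation of high density lipoprotein. Cells raise its transcription through the liver X receptors when sterols accumulate, and among leukocytes it is best known from monocytes and macrophages, where loss of the transporter leads to lipid-laden cells. The data described here are the counts of this 1 gene, ENSBTAG00000020661, out of 25669 genes in the table, of which 18206 had at least 1 count. The row was taken by its identifier, which the study pairs with the human ortholog ABCA1, and it was followed through all 48 libraries with each calf as its own baseline. In the RefSeq annotation of the ARS-UCD2.0 assembly the nearest protein-coding genes with a symbol are NIPSNAP3A and SLC44A1. The counts were made on Btau4.0, so positions are not given.

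Total leukocytes were obtained from the blood of 12 spring-born, intact male Simmental beef calves (breed label, Continental) by lysis of the red cells, and messenger RNA was sequenced. Control calves (n = 6) were housed together with their dam, whereas weaned calves (n = 6) were parted from the dam on the day of housing and penned among themselves. All had been vaccinated against respiratory viruses before the study and received the same silage and concentrate. Each calf gave 1 library on d 0, before housing, and 1 on each of d 1, d 2 and d 7, so that there were 8 groups of 6 libraries. Because the samples are mixtures of white blood cells, fewer cells of a type and less RNA per cell cannot be told apart in any of the values below.

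Total counts per library lay between 1662995 and 4256011. Levels are given as CPM, which are counts relative to the library total after scaling by the trimmed mean of M-values (TMM). A count of 3 in a library corresponded to 0.686 to 2.08 CPM, and ABCA1 was far above this in each of the 48 libraries, with 40 to 1689 counts. The lowest level was 23.99 CPM in control calf 1759 on d 7, with an exact 95% Poisson interval of 17.1 to 32.7 CPM. The highest was 398 CPM in weaned calf 1758 on d 2, with an interval of 380 to 418 CPM. These 2 intervals do not overlap, and they cover counting error only.

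Libraries were compared with the other days of the same calf over the 300 genes that separated the calves best on those days. Of the 48 libraries, 46 resembled their own calf most. The other 2 were the d 7 libraries labelled 1758 and 1770, both weaned calves, and each resembled the calf named on the other library, with r = 0.648 against 0.240 for its own calf and r = 0.604 against 0.238. A low r with the own calf was also seen in the libraries of 1755 on d 2 (0.142) and 1758 on d 0 (0.249), though no other calf was closer to them. The group means of weaned calves on d 7 do not depend on which of the pair is which. Changes within calves on d 7 do, and they are therefore given as labelled, with the 2 libraries exchanged, and without both calves.

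The order of the 8 groups by median ABCA1 level ran from weaned calves on d 1 (111 CPM) through weaned calves on d 7 (95.7 CPM), control calves on d 2 (93.9 CPM), control calves on d 0 (92.0 CPM), weaned calves on d 2 (91.3 CPM), control calves on d 1 (88.9 CPM) and weaned calves on d 0 (65.2 CPM) to control calves on d 7 (42.0 CPM). The ranges of each neighbouring pair in this order overlapped. The mean levels were 60.5 ± 11.8 CPM in weaned calves on d 0, 135 ± 55.5 CPM on d 1, 138 ± 130 CPM on d 2 and 126 ± 74.1 CPM on d 7 (SD, n = 6 each). In control calves they were 91.4 ± 27.7 CPM, 101 ± 45.5 CPM, 99.0 ± 49.5 CPM and 60.97 ± 47.1 CPM on the same days (SD, n = 6 each). In weaned calves the SD was 19.6% of the mean on d 0, 41.1% on d 1, 94.6% on d 2 and 58.9% on d 7. Without the highest library of each group, a choice made after the values were seen, it was 19.7%, 33.8%, 34.3% and 55.6%, so that the value of d 2 rested on calf 1758. Control calf 1803 had the highest level of its treatment on each of the 4 days, and weaned calf 1758 on 3 of the 4, the library labelled 1758 on d 7 included.

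**Figure D1:**
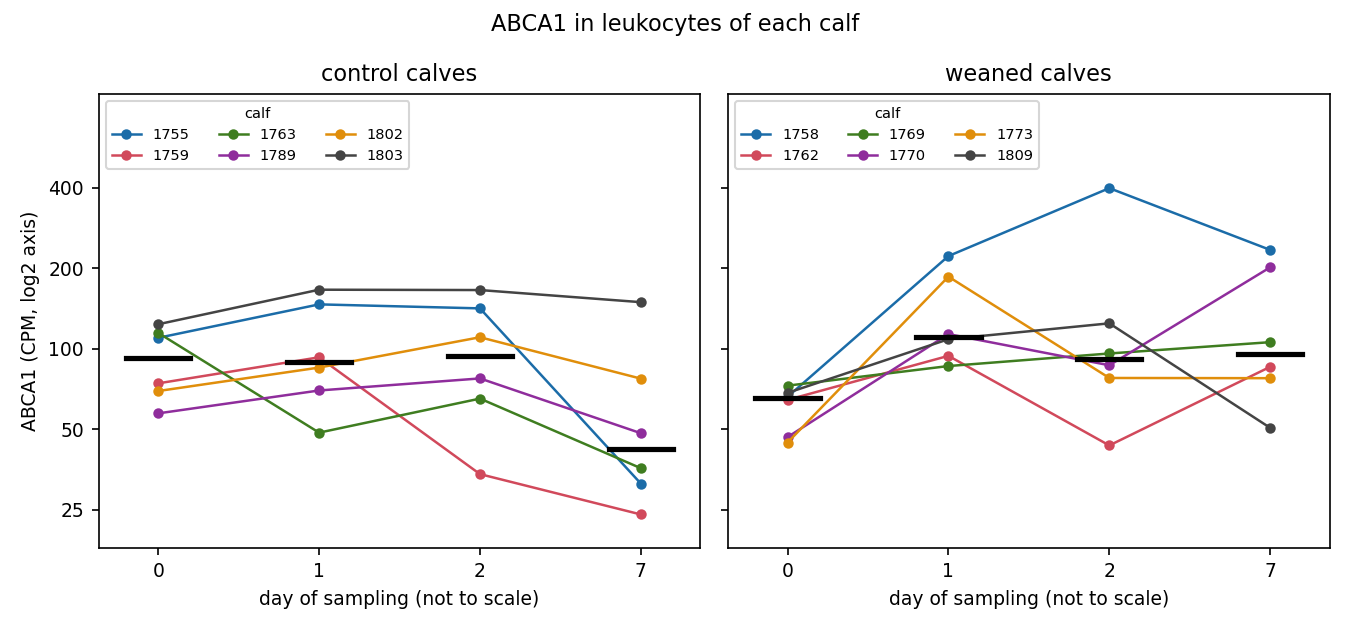
ABCA1 level (CPM on a log2 axis) in each control calf (left) and weaned calf (right) on d 0, 1, 2 and 7; points are libraries, lines join the libraries of 1 calf as labelled, and black bars are medians of 6 calves. All 6 weaned calves lie above their d 0 level on d 1, and the lowest median is that of control calves on d 7 (42.0 CPM).

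In weaned calves each of d 1, 2 and 7 was set against d 0. On d 0 the lowest, median and highest levels were 44.6, 65.2 and 72.7 CPM, and on d 1 they were 86.1, 111 and 222 CPM. The 2 days did not overlap, and ABCA1 was higher on d 1 in 6 of 6 calves. The ratio to d 0 ran from 1.18 in calf 1769 to 4.17 in calf 1773 with a median of 2.01, and it was at least 2 in 3 calves, 1758, 1770 and 1773. The log2 change was 1.13 ± 0.23 (SE), and in edgeR's quasi-likelihood test ABCA1 had the smallest unadjusted p of all 14038 genes. After Benjamini-Hochberg adjustment over these genes the edgeR p was 0.423. A call needed an adjusted p under 0.05 together with a 2-fold or greater change, so ABCA1 was not called, and 0 of the 14038 genes (0%) were, while 1456 (10.4%) had an unadjusted p under 0.05. An exact two-sided permutation test of the mean change within calves, with the signs of the 6 changes flipped in every combination, gave a mean log2 change of 1.08 and p = 0.03125, the smallest p that 6 calves allow, and 0.135 after adjustment over the 13 tests of this kind.

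With calf as replicate block, the log2 change on d 1 was 1.07 ± 0.20 (SE) and the edgeR adjusted p 0.150, and 2 of the 14038 genes (0.0142%), ABCA1 not among them, were called. The DESeq2 Wald test called 1 gene, which was ABCA1 (log2 change 1.15, adjusted p = 0.0265). Over the 22 alternatives the ABCA1 log2 change lay between 0.87 and 1.31 and its adjusted p between 0.000150 and 0.828, and 4 of them called the gene. The lowest adjusted p came from the exact test with a common dispersion, which takes no account of how much ABCA1 itself varied.

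On d 2 ABCA1 was higher than on d 0 in 5 of 6 weaned calves, with levels of 43.5 CPM at the lowest, 91.3 CPM at the median and 398 CPM at the highest. Calf 1758 stood 6.03-fold above its d 0 level and calf 1762 was lower, at 0.675 of it. The log2 change was 1.18 ± 0.41 (SE), rank 50 by unadjusted p, with an edgeR adjusted p of 0.944, and 0.83 ± 0.31 (adjusted p = 0.960) with calf as replicate block. Neither fit called any of the 13984 genes (0%), DESeq2 called 0, and 295 genes (2.11%) had an unadjusted p under 0.05. The mean of the changes within calves was 0.82 (exact permutation p = 0.0938). The size depended on 1 calf and on the fit, since the log2 change was 0.53 without calf 1758, 0.68 with flowcell as a block and 0.75 with the share of reads kept after removal of duplicates as a covariate.

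On d 7 the levels in weaned calves were 50.6 CPM at the lowest, 95.7 CPM at the median and 234 CPM at the highest, and 5 of 6 calves were above d 0. Ratios to d 0 ran from 0.740 in calf 1809 to 4.32 in the library labelled 1770. The log2 change was 1.05 ± 0.32 (SE), rank 15 by unadjusted p, with an edgeR adjusted p of 0.920, and 0 of 14026 genes (0%) were called in edgeR, against 1 in DESeq2 and 371 (2.65%) with an unadjusted p under 0.05. With calf as replicate block it was 0.87 ± 0.29 (adjusted p = 0.923, 0% called), and with the 2 libraries exchanged it was 0.87 ± 0.29 (adjusted p = 0.937). Without calves 1758 and 1770 it was 0.34 ± 0.17 (adjusted p = 0.654), so that most of the log2 change rested on these 2 calves, and with the share of reads kept as a covariate it was 0.63 ± 0.27. The changes within calves averaged 0.87 as labelled (exact permutation p = 0.0938, also when exchanged) and 0.32 in the other 4 calves, where p was 0.375 and could not go below 0.125.

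Control calves, which kept their dam, had levels on d 0 of 57.3 CPM at the lowest, 92.0 CPM at the median and 123 CPM at the highest, and on d 1 of 48.5, 88.9 and 166 CPM. ABCA1 was slightly higher on d 1 in 5 of 6 calves, by 1.22- to 1.35-fold, and lower in calf 1763, at 0.424 of d 0. The log2 change was 0.16 ± 0.28 (SE, edgeR adjusted p = 0.999), and 0.11 ± 0.19 with the replicate block (adjusted p = 0.936, 0% called). It was 0.35 ± 0.07 with flowcell as a block (adjusted p = 0.547), 0.36 without calf 1763 and 0.07 without calf 1803. In this comparison 0 of 13934 genes (0%) were called by edgeR and by DESeq2, and 107 (0.768%) had an unadjusted p under 0.05. The mean change within calves was 0.08 (exact permutation p = 0.844).

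The d 2 levels of control calves were 33.95 CPM at the lowest, 93.9 CPM at the median and 166 CPM at the highest. They were above d 0 in 4 calves and below it in calves 1759 and 1763, at 0.458 and 0.568 of d 0. The log2 change was 0.15 ± 0.29 (SE, edgeR adjusted p = 0.831), and 0.05 ± 0.21 with the replicate block (adjusted p = 0.917, 0% called). None of the 13859 genes (0%) was called by edgeR or DESeq2, and 705 (5.09%) had an unadjusted p under 0.05. The mean of the changes within calves was -0.006, opposite in sign to both fits (exact permutation p = 0.938).

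By d 7 ABCA1 had its lowest group median, with levels of 23.99 CPM at the lowest, 42.0 CPM at the median and 149 CPM at the highest in control calves. In 4 of 6 calves it was below d 0, and in 3 of them, 1755, 1759 and 1763, it was at 0.285 to 0.323 of d 0, whereas calves 1802 and 1803 were at 1.11 and 1.21. The log2 change was -0.53 ± 0.34 (SE), with an edgeR adjusted p of 0.233, in a comparison where 516 of 13829 genes (3.73%) were called and 5547 (40.1%) had an unadjusted p under 0.05. ABCA1 was not among the called genes. Both values depended on single calves. Without calf 1803 the log2 change was -0.92 (adjusted p = 0.0237) and 1086 genes were called, without 1802 790 were called, and without 1755, 1759 or 1763 the number was 0. With calf as replicate block the log2 change was -0.76 ± 0.23 (SE) and the adjusted p 0.0184, below the threshold, but the change did not reach the 2-fold that a call needs. In that fit 536 genes (3.88%) were called and 3359 (24.3%) had an adjusted p under 0.05. The mean change within calves was -0.81 (exact permutation p = 0.188).

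The libraries were sequenced on 8 flowcells, and the change of ABCA1 within control calves went with whether the 2 libraries compared shared a flowcell, a division made after the values were seen. In control calves all 11 changes between libraries of 1 flowcell were upward, at 1.11 to 1.59 times d 0, and all 7 changes across flowcells were downward, at 0.285 to 0.843 times d 0. These 18 changes come from 6 calves and share their d 0 libraries. On d 1, 2 and 7 the changes within a flowcell numbered 5, 4 and 2, and those across flowcells 1, 2 and 4. The flowcell can therefore not be told apart from day and calf. In weaned calves, as labelled, 12 of 13 changes within a flowcell and 4 of 5 across flowcells were upward. With the d 7 libraries labelled 1758 and 1770 exchanged, the d 7 changes of both calves would be across flowcells. On d 7 the 2 control calves with both libraries on 1 flowcell gave a log2 change of 0.22 ± 0.15 (SE), opposite in sign to that of all 6, whereas with flowcell as a block over all 6 it was -0.72 ± 0.30 (edgeR adjusted p = 0.159). The part of the flowcell in these changes was not tested.

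**Figure D2:**
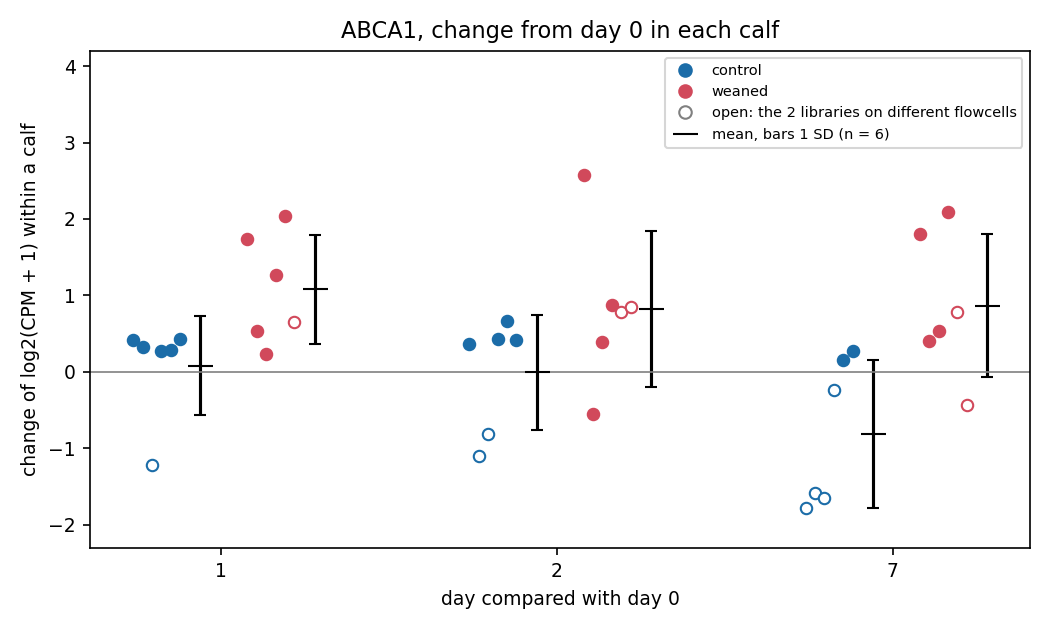
Change of ABCA1 within each calf, as log2(CPM + 1) on d 1, 2 or 7 minus d 0, in control (blue) and weaned (red) calves; open points are changes between libraries of different flowcells, and the black mark and bar are the mean and 1 SD of 6 calves. On d 1 all 6 weaned calves lie above 0, and all 7 open points of control calves lie below it. Calves are as labelled.

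Whether the change from d 0 differed between treatments was tested directly, with calf as a block over the 24 libraries of d 0 and the later day. On d 1 the change was greater in weaned than in control calves by 0.98 ± 0.32 on the log2 scale (SE, rank 360 by unadjusted p, edgeR adjusted p = 0.200). Weaned against control, the log2 difference was -0.58 on d 0 and 0.39 on d 1, so the unequal start on d 0 enters this result. No gene of 14786 (0%) was called in this interaction by edgeR and 4 were by DESeq2, and 3301 (22.3%) had an unadjusted p under 0.05. The exact permutation of calf labels over the changes within calves gave a difference of 0.99 with p = 0.0152, and 0.113 after adjustment over the 13 tests. Among calves with both libraries on 1 flowcell, 5 in each treatment, the difference was 0.82 (exact permutation p = 0.0556).

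The same difference on d 2 was 0.81 ± 0.42 (SE, edgeR adjusted p = 0.505), and 0.44 without calf 1758. Neither edgeR nor DESeq2 called any of the 14733 genes (0%), and 1061 (7.2%) had an unadjusted p under 0.05. The exact permutation test gave a difference of 0.83 with p = 0.130, and 0.35 (p = 0.686) among the 4 calves of each treatment with both libraries on 1 flowcell.

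The largest of the 3 differences between treatments was that on d 7, where the change was greater in weaned calves by 1.65 ± 0.43 (SE, rank 170 by unadjusted p). Its edgeR adjusted p was 0.0810, so ABCA1 was not called, nor was any other of the 14713 genes (0%), although 5268 (35.8%) had an unadjusted p under 0.05. DESeq2 called 950 genes, ABCA1 among them (adjusted p = 0.0266), and without the filter on low counts edgeR called 625, again with ABCA1 (adjusted p = 0.0415). Over the 19 alternatives the adjusted p lay between 0.0266 and 0.361. The exact permutation test gave a difference of 1.67 with p = 0.0173, and 0.113 after adjustment. With the libraries labelled 1758 and 1770 exchanged the edgeR difference was 1.65 ± 0.44, and without both calves it was 1.10 ± 0.37 (adjusted p = 0.361), with an exact permutation p of 0.0714. Control calves were below d 0 in 4 of 6 and weaned calves above it in 5 of 6, so that changes in both treatments enter this difference. All 4 of these control changes were across flowcells. Among the 4 weaned and 2 control calves with both libraries on 1 flowcell as labelled, the difference was 0.997, with too few calves for a p under 0.05. The 4 weaned calves include 1758 and 1770, with log2 changes of 1.81 and 2.09, against 0.41 and 0.53 in 1762 and 1769. With the d 7 libraries of 1758 and 1770 exchanged, both calves would leave this set.

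Weaned and control calves were also compared on each day. Before housing ABCA1 was lower in the calves that were to be weaned, with a median of 65.2 against 92.0 CPM, and all 6 of them lay below the control median. The log2 difference was -0.58 ± 0.19 (SE, rank 58 by unadjusted p), with an edgeR adjusted p of 0.624. None of 13926 genes (0%) was called by edgeR or DESeq2, and 868 (6.23%) had an unadjusted p under 0.05. The exact permutation of calf labels gave a difference of -0.56 with p = 0.0433, and 0.141 after adjustment over the 13 tests. A difference on later days, when read alone, therefore starts from unequal levels. The low d 0 level of weaned calves also enters their changes from d 0 and the interactions.

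On d 1 the log2 difference was 0.39 ± 0.30 (SE, edgeR adjusted p = 0.959), and 5 of 6 weaned calves lay above the control median. Of 14078 genes 0% were called by edgeR or DESeq2 and 3.01% (424) had an unadjusted p under 0.05. With flowcell as a block the difference was 0.95 ± 0.17, with an adjusted p of 0.362 (0.354 to 1 over the alternatives), and without calf 1758 it was 0.19. The exact permutation test gave p = 0.238.

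On d 2 the treatments overlapped almost fully, at 43.5 to 398 CPM in weaned and 33.95 to 166 CPM in control calves. The log2 difference of 0.46 ± 0.45 (SE, edgeR adjusted p = 0.9497) turned to -0.21 without calf 1758 and to -0.01 with flowcell as a block, and was 0.08 with the share of reads kept as a covariate. Again 0 of 13949 genes (0%) were called by edgeR or DESeq2, and 470 (3.37%) had an unadjusted p under 0.05. The exact permutation p was 0.647.

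A week after housing all 6 weaned calves lay above the control median of 42.0 CPM, although the ranges overlapped, at 50.6 to 234 CPM in weaned and 23.99 to 149 CPM in control calves. The log2 difference on d 7 was 1.03 ± 0.42 (SE, rank 2070 by unadjusted p, edgeR adjusted p = 0.169). In edgeR 0 of 13932 genes (0%) were called and 3552 (25.5%) had an unadjusted p under 0.05, and DESeq2 called 28, ABCA1 not among them. The exact permutation test gave a difference of 1.12 with p = 0.0584, and 0.152 after adjustment. The difference was 0.36 ± 0.38 without calves 1758 and 1770, and 0.43 ± 0.44 with the share of reads kept as a covariate. It passed both criteria without calf 1809 (log2 difference 1.19, adjusted p = 0.0408), a fit that called 1137 genes. With all calves it also passed both in the exact test with a common dispersion (1.03, adjusted p = 0.00188), which called 865 genes. That test gives all genes the same dispersion. The SD of ABCA1 over the 48 libraries was above that of 97.9% of the genes with a mean of at least 5 CPM, so the p of this test may be too small.

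In all, ABCA1 had an unadjusted p under 0.05 in 7 of the 13 edgeR comparisons, 6 of them with more ABCA1 in weaned calves or on the later day and 1, that before housing, with less in weaned calves, and it was called in 0. The comparisons share libraries and are not independent. The weaned d 0 libraries enter each of these 6 except weaned against control on d 7. With calf as replicate block for the days against d 0, the comparisons with an unadjusted p under 0.05 were 8 of 13. Of these 6 had more ABCA1 and 2 less, the fall in control calves on d 7 being added, and again 0 were called. Compared with the 10258 genes with a mean of at least 5 CPM, ABCA1 varied strongly. Its SD over the 48 libraries was 0.81 on the log2(CPM + 1) scale against a median of 0.34 over genes, above 97.9% of them. Within calves the SD over days was 0.70 against 0.29 (above 97.4%), while over the 12 calves on d 0 it was 0.47 against 0.30 (above 76.9%).

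Much of this variation was shared with the library as a whole. Over the 48 libraries, which are not independent because each calf gave 4, ABCA1 in log2(CPM + 1) followed the number of genes with at least 1 count (Pearson r = 0.729, Spearman rho = 0.634), also after subtraction of calf means (r = 0.741) or flowcell means (r = 0.750) and without the 2 libraries farthest from the median (r = 0.672). For the log2 of total counts r was 0.555 and rho 0.448 (r = 0.433 without the 2 farthest libraries and 0.588 after subtraction of flowcell means). The first principal component of the 10258 genes held 51.1% of their variance, and ABCA1 followed it with r = 0.712 and rho = 0.634 (r = 0.623 without the 2 farthest libraries, 0.777 after subtraction of flowcell means). The median number of genes detected was highest in weaned calves on d 1 (14406), where the median of ABCA1 was highest, and lowest in control calves on d 7 (13816), where that of ABCA1 was lowest. The part of these library properties in the ABCA1 changes was not tested.

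**Figure D3:**
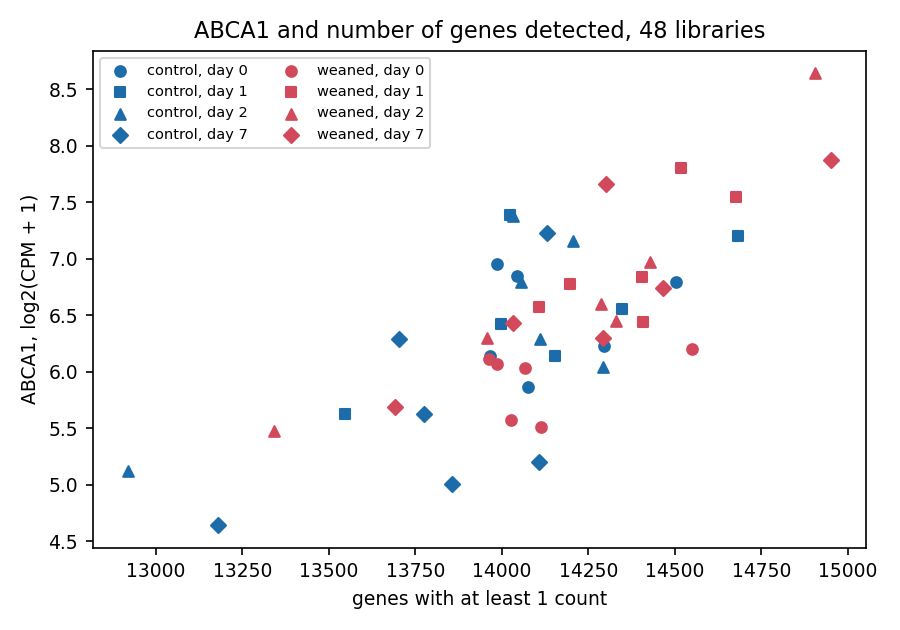
ABCA1 as log2(CPM + 1) against the number of genes with at least 1 count in each of the 48 libraries, with colour for treatment and marker shape for day. Libraries with fewer genes detected have lower ABCA1 (Pearson r = 0.729), and the library with fewest genes, 12919, is that of control calf 1759 on d 2.

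Likeness to ABCA1 was measured as Pearson r in log2(CPM + 1) over the 48 libraries, for the 10257 other genes with a mean of at least 5 CPM. The 10 most alike had r from 0.777 to 0.825, led by ENSBTAG00000012371 (0.825) and ENSBTAG00000020303 (0.804), and the 5 most opposite had r from -0.807 to -0.820, led by ENSBTAG00000019479 (-0.820) and ENSBTAG00000018285 (-0.819). None of these 15 identifiers is paired with a symbol in the tables at hand. Weaker correlation with ABCA1 was common, since 28.7% of the genes had r above 0.5 and 26.3% below -0.5. After removal of the first component the 10 most alike had r from 0.454 to 0.596, the 5 most opposite from -0.541 to -0.603, and CCNT2, named below, 0.282. The list depended on the measure, with 4 of the 10 genes kept under Spearman rho and 1 after subtraction of calf means. Among the 273 genes that do have a symbol, and named here after their values were seen, the most alike were CCNT2 (r = 0.739), a cyclin of the elongation factor P-TEFb, and GTF2A1 (0.738), a subunit of the general transcription factor TFIIA, which stood at ranks 98 and 102 of all genes. The most opposite of them was TGM2 (-0.629), a transglutaminase.

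Genes that act around ABCA1 could be followed only in small part. The 6 lists drawn up for cholesterol efflux and liver X receptor targets, the nuclear receptors upstream of ABCA1, sterol synthesis, cholesterol uptake and storage, the ABCA subfamily and the glucocorticoid response held 98 symbols, of which 4 were paired with a bovine identifier. Any description of these lists as lists is therefore void. The pairs exist mainly for genes the study itself selected on these samples, so the 4 members are not independent evidence of a direction, and ABCA1, paired in the same way, is not either. They were APOE, OLR1, ABCA6 and ABCA9, and 1 of the 4, OLR1, was called, in control calves on d 7 (3.73% of all genes).

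OLR1, the lectin-like scavenger receptor that takes up oxidised low density lipoprotein, was at 11.5 CPM at the lowest, 25.1 CPM at the median and 37.4 CPM at the highest in control calves on d 0, and at 4.55, 9.11 and 14.6 CPM on d 7. It fell by 1.30 ± 0.30 on the log2 scale (SE, edgeR adjusted p = 0.0222), and over 16 alternatives the change lay between -1.49 and -0.90 with an adjusted p of 2.24e-05 to 1.00, and 7 of them did not call it. In weaned calves its log2 change on d 7 was -0.16 ± 0.38 (adjusted p = 0.927), and the interaction on d 7 was 1.01 ± 0.39 (adjusted p = 0.0951). Over the 48 libraries its r with ABCA1 was 0.553.

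ABCA6, a transporter of the same subfamily whose gene lies in a cluster apart from ABCA1, was at 17.8 CPM at the lowest, 42.4 CPM at the median and 72.1 CPM at the highest in control calves on d 7, against 46.6, 103 and 179 CPM in weaned calves. The log2 difference was 1.34 ± 0.31 (SE), with an edgeR adjusted p of 0.158 (6.19e-05 to 0.680 over 21 alternatives, 3 of which called it). Its r with ABCA1 was 0.287. ABCA9 had 0 to 24 counts per library and APOE, the apolipoprotein that macrophages secrete with cholesterol, 0 to 17 counts with 15 libraries at 0, too few for a statement about either at this depth.

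The label of total leukocytes could not be checked against marker genes, because 11 of the 80 symbols on 8 lists of blood cell markers were paired with an identifier. The markers of monocytes, neutrophils and B lymphocytes were matched by 0 of 12, 0 of 12 and 0 of 10, those of T lymphocytes by 1 of 13, natural killer cells 2 of 7, eosinophils 3 of 8, platelets 2 of 10 and erythroid cells 3 of 8. The cell composition behind the ABCA1 values could therefore not be read from these counts. Beside the low ABCA1 of control calves on d 7 stand 3 of these 11 genes that were called in the same comparison, where 3.73% of all genes were. These pairs too exist mainly for genes the study itself selected on these samples. The share of markers called can therefore not be read against that of all genes, and the markers are not independent evidence of a shift in cell types. TRAT1, a T cell receptor adaptor, fell by 1.04 ± 0.31 on the log2 scale (SE, edgeR adjusted p = 0.0338), KLRD1, a natural killer cell receptor, fell by 1.73 ± 0.42 (adjusted p = 0.0226), and GATA1, a transcription factor of erythroid cells and eosinophils, rose by 1.10 ± 0.35 (adjusted p = 0.0427). The other 2 eosinophil markers differed in direction, with log2 changes of 0.55 ± 0.24 for ALOX15, a lipoxygenase, and -0.27 ± 0.58 for IL5RA, the interleukin receptor, neither called. The call was lost in 8 of 16 alternatives for TRAT1, 7 of 15 for KLRD1 and 11 of 16 for GATA1, among them flowcell as a block and the 2 calves with both libraries on 1 flowcell. With flowcell as a block the log2 changes were -0.82 ± 0.36 for TRAT1, -1.43 ± 0.53 for KLRD1 and 0.99 ± 0.37 for GATA1, and in those 2 calves they were -0.10 ± 0.39 for TRAT1, -0.44 ± 0.57 for KLRD1 and 0.86 ± 0.74 for GATA1. Calf as replicate block also ended the calls of TRAT1 (-0.95 ± 0.28) and GATA1 (0.90 ± 0.27), under 2-fold at an adjusted p of 0.0188 each. KLRD1 was still called in that fit (-1.55 ± 0.37, adjusted p = 0.00606). HBB, a globin, and SELP, a selectin of platelets, had log2 changes of 1.201 ± 0.424 and 0.90 ± 0.33 without a call. With calf as replicate block these were 1.00 ± 0.28 (adjusted p = 0.0143) and 0.74 ± 0.25 (adjusted p = 0.0366), under 2-fold. Without the block the other platelet marker, PPBP, was at 0.16 ± 0.58 (adjusted p = 0.849). ALAS2 of the erythroid list was at 0.64 ± 0.57 (adjusted p = 0.402). In weaned calves on d 1 the markers that moved most with calf as replicate block were KLRK1, a natural killer cell receptor, and IL5RA. Neither was called, with log2 changes of 1.07 ± 0.21 and 1.03 ± 0.23 (adjusted p = 0.150 each). Their interactions were 1.29 ± 0.40 and 1.23 ± 0.32 (adjusted p = 0.200 each). The other eosinophil markers, ALOX15 and GATA1, were at 0.05 ± 0.13 and -0.09 ± 0.20 in the same block fit, with interactions of -0.01 ± 0.30 and -0.39 ± 0.34. KLRD1, the other natural killer cell marker, was at 0.54 ± 0.33 (adjusted p = 0.302), with an interaction of 0.98 ± 0.48 (adjusted p = 0.232). The part of these genes in the ABCA1 values was not tested.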

How the data were processed

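Per the labels and the study's methods, the authors sequenced each library in 1 lane, aligned reads to Btau4.0 with Bowtie 0.12.7 allowing no mismatch, suppressed reads with several alignments, kept 1 read per position and deposited raw counts per Ensembl gene made with HTSeq 0.4.6p2. Whether strand was used is not given in the sources used here. Symbols came from human orthologs in the study's tables (643 genes). Counts were compared with edgeR 4.0.16 (R 4.3.3) after TMM, with the quasi-likelihood F-test on genes with at least 10 counts in total. Exact two-sided permutation tests used log2(CPM + 1). DESeq2 1.42.0 and other settings were alternatives. Scripts were tested on simulated data. Days were paired by calf number, which names the same animal, and deviations from group means correlated between d 0 and a later day with a mean r of 0.214 to 0.503 per comparison (single calves -0.569 to 0.886). The named genes were ABCA1, list members, and the 10 genes most like and 5 most unlike ABCA1. The members and lists were chosen with earlier results of these data known. No 2 libraries of a group agreed within sampling noise (chi-square per degree of freedom 2.80 to 58.4, 120 pairs). Figures were drawn with matplotlib 3.10.9.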

Additional observations from a re-analysis of the deposited data

Results flagged for a closer look

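Of 62 sets of 6 values tested, 10 held a library whose gap to its nearest neighbour was large for the range of its set. Chance gives about 1 in 20 for independent, normally distributed values. CPM need not be so distributed and some sets share libraries, so the 10 of 62 cannot be read as an excess. For ABCA1 these were the level of weaned calf 1758 on d 2 (398 CPM, next highest 124 CPM) and the change of control calf 1763 on d 1 (log2 change -1.22, next lowest 0.28). The d 2 library of control calf 1759 stood apart in total counts (1662995, next lowest 3443620) and in genes detected (12919, next lowest 14031), and that of weaned calf 1769 on d 0 in genes detected (14550, next 14112). OLR1 stood apart in weaned calves 1773 on d 1 (53.2 CPM, next 18.9 CPM) and 1758 on d 2 (41.3 CPM, next 17.2 CPM). ABCA9 did so in control calf 1763 on d 7 (3.02 CPM, next 1.41 CPM) and weaned calf 1762 on d 2 (10.3 CPM, next 3.996 CPM), and APOE in control calf 1803 on d 2 (4.75 CPM, next 0.710 CPM). ABCA9 and APOE had at most 24 and 17 counts in a library, too few for anything to be read from these gaps.

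The change of ABCA1 from d 0 on d 1 differed by treatment by 0.99 (exact permutation p = 0.0152, adjusted 0.113, upward in 6 of 6 weaned calves) and that on d 7 by 1.67 (p = 0.0173, adjusted 0.113, upward in 5 of 6), by a permutation test of the difference itself. Neither passed after adjustment over the 13 tests.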

How the results depend on the processing

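ABCA1 kept its direction and its side of the threshold in 148 fits with a calf left out and in 104 other alternative fits. Calf as replicate block changed no call of ABCA1 (log2 change 1.07 on d 1, 0.83 on d 2 and 0.87 on d 7 in weaned calves, 0.11, 0.05 and -0.76 in control calves, the last with an edgeR adjusted p of 0.0184 but under 2-fold). The exchange or omission of calves 1758 and 1770, the restriction of permutation tests to 1 flowcell, the replicate block with a calf left out and the alternatives for OLR1, TRAT1, KLRD1, GATA1 and ABCA6 were chosen after seeing the data. With all calves or within 1 flowcell, reversed values were -0.012 for weaned against control on d 2 with flowcell as a block, and 0.22 in control calves on d 7 in the 2 calves with both libraries on 1 flowcell. ABCA1 was called by DESeq2 in weaned calves on d 1 (1.15) and in the interaction on d 7 (1.69), without the filter in that interaction (1.66), and by the exact test with a common dispersion for weaned against control on d 7 (1.03) and in weaned calves on d 1 (1.13), d 2 (1.18) and d 7 (1.05). Permutation differences within 1 flowcell, with calves as labelled, were 0.82 in the interaction on d 1, with p no longer under 0.05. They were 1.16 in weaned calves on d 1 and 0.997 in the interaction on d 7, where p could not go below 0.0625 and 0.0667 and so says nothing of stability. In control calves they were 0.47 on d 2 and 0.21 on d 7, opposite in sign to the means of all 6 calves. Without calves 1758 and 1770 that of the interaction on d 7 was 1.13, above 0.05, and the log2 change in weaned calves on d 7 with the block was 0.34. With each calf left out, with or without the block, the log2 change ran from -0.21 to 0.69 for weaned against control on d 2, 0.75 to 1.52 on d 7, 0.87 to 1.31 in weaned calves on d 1 and -0.084 to 0.31 in control calves on d 2. The sign reversed in 5 of these fits, for weaned against control on d 2 without calf 1758 and, with the block, in control calves on d 2 without calf 1755, 1789, 1802 or 1803. Without the block it moved by over 1.5 times, with no call, among others to 0.19 for weaned against control on d 1 and 0.44 in the interaction on d 2 (both without calf 1758), and in control calves to 0.36 on d 1 (without calf 1763) and -0.92 on d 7 (without calf 1803, edgeR adjusted p 0.0237). ABCA1 was then called for weaned against control on d 7 without calf 1809 (1.19), and with the block in weaned calves on d 1 without calf 1762 (1.19) or 1769 (1.26).

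Under the exact test the counts of called genes were 68, 40, 75 and 865 for weaned against control on d 0, 1, 2 and 7, 64, 62 and 38 in weaned calves on d 1, 2 and 7, and 18 in control calves on d 2. DESeq2 called 28 for weaned against control on d 7, 1 in weaned calves on d 1 and on d 7, and 4 and 950 in the interactions on d 1 and d 7, where no filter gave 625. The replicate block gave 2 in weaned calves on d 1. In control calves on d 7 the count was 1 with all 48 libraries in 1 fit, 11 with flowcell as a block, 2 with the share of reads kept and 0 within 1 flowcell. With each calf left out it was 0 to 1170 there, 0 to 1137 for weaned against control on d 7, 0 to 114, 0 and 0 to 1 in weaned calves on d 1, 2 and 7, 0 to 1 in control calves on d 2 and in the interaction on d 1. Of the 10 genes most like ABCA1, 4 were kept under Spearman rho and 1 after subtraction of calf means. The cause of these shifts was not tested. Libraries held 1662995 to 4256011 counts, so 3 counts stood for 0.686 to 2.08 CPM and genes at or below that level rest on very few reads.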

Other observations

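Beside ABCA1, ABCA6 and ABCA9, the ATP-binding cassette transporters paired with an identifier in the tables at hand, named after their values were seen, were ABCC2, ABCC5, ABCC9 and ABCC11. Of these ABCC5, an exporter of cyclic nucleotides and organic anions, was measured at a mean of 7.29 CPM (2.13 to 16.0 CPM over the 48 libraries) and had r = 0.682 with ABCA1, within a set of 10257 genes of which 28.7% exceeded 0.5. ABCC9 had 0 to 27 counts per library, ABCC2 0 to 5 and ABCC11 0 to 2.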
